A study of Mus musculus with 6 samples.

Results

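Respiratory complex I is described here by 44 nuclear genes whose symbols begin with Nduf, out of 18194 genes measured. They were found as the probe sets with exactly 1 gene symbol in the platform annotation, and a gene with several was represented by its brightest one, averaged over the 6 arrays. Of the 44 genes, 6 encode core subunits, 8 accessory subunits of the matrix arm, 19 accessory subunits of the membrane arm, 1 (Ndufab1) an accessory subunit found in both arms, and 8 encode Ndufaf assembly factors. The other 2, Ndufa4 and its paralog Ndufa4l2, bear an Nduf name, but Ndufa4 is now counted as a subunit of cytochrome c oxidase. The study hybridised RNA from flow-sorted LSK cells, marrow cells without lineage markers that carry Sca-1 and Kit and hold the haematopoietic stem cells, to Affymetrix arrays. There were 2 groups of 3 samples with 1 array each, WT and Tet1 KO, all from bone marrow of 6-month mice of the strain given as CD57BL/6. The Tet1 KO allele, its tissue range and the number of mice behind each sample are not stated in the labels. The p-values therefore reflect only how these samples vary, and that variation may be technical.

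Complex I is the entry point of the respiratory chain. It takes electrons from NADH, passes them through a flavin and a row of iron-sulfur clusters in the arm that projects into the mitochondrial matrix, hands them to ubiquinone, and pumps protons through its membrane arm. The core subunits carry these reactions, the accessory subunits surround and stabilise them, and assembly factors help to build the complex without staying in it. Haematopoietic stem cells are known for a quiet oxidative metabolism that increases as they leave quiescence.

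The labels and arrays were checked first. Tet1 read 6.89, 6.80 and 6.75 on the WT arrays and 6.26, 5.63 and 5.51 on the Tet1 KO arrays (log2 intensity), and each of its 4 probe sets separated the groups, with Tet1 KO lower. The difference of the brightest was -1.01 (SE 0.22, unadjusted limma p 0.00271, adjusted 0.642). Of 10 LSK markers, 8 were matched to a gene, Kit, Cd34 and Flt3 among them, and all 8 read above the bacterial control level of 4.39 on every array. Tet1 KO replicate 2 stood apart: its highest correlation with another array was 0.944, against at least 0.976 for each of the others, and its brightest bacterial control read 4.87, against at most 4.37 elsewhere. Results that rest on it are therefore also given without it. The Gapdh signal at the 3′ end exceeded that at the 5′ end by 1.36 to 1.57 on the WT arrays, by 1.76 and 1.90 on Tet1 KO replicates 1 and 3, and by 1.22 on replicate 2. Summed linear signals of marker lists overlapped between the groups for LSK cells, B cells, erythroid cells, granulocytes and monocytes. The sum for mast cells and basophils was 1008 to 1302 in WT and 659 to 946 in Tet1 KO. Most of it came from Gata2, which stem cells also express. Gata2 was lower in Tet1 KO, at -0.66, while Cpa3, Mcpt8, Fcer1a and Ms4a2 were higher, at 0.27, 0.44, 0.65 and 0.33. The means of Fcer1a and Ms4a2 lay below the bacterial level. For T and NK cells the sum was 66.6 to 78.8 in WT and 82.7 to 115 in Tet1 KO. There, 3 of 4 matched markers lay below the bacterial level on every array. The part of these signs in the results below was not tested.

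No complex I gene passed correction for multiple testing. In limma with Benjamini-Hochberg adjustment over all genes, 0 of 44 had an adjusted p under 0.05, with a lowest value of 0.642, and the share called over all genes was 0%. Without correction, 3 genes had a limma p under 0.05, Ndufa6, Ndufa7 and Ndufa9, all lower in Tet1 KO. They are 6.82% of the 44, where 3.96% of all genes were past the threshold on the lower side, 3.25% on the higher side and 7.21% in either direction. Without Tet1 KO replicate 2 the count was 4 (Ndufa6, Ndufa10 and Ndufaf8 lower, Ndufa5 higher), where 8.29% of all genes passed. It was 1 (Ndufa7) without WT replicate 2 and 0 without WT replicate 3, where 3.41% and 4.9% of all genes passed. Without Tet1 KO replicate 3 it was again 3, but of other genes (Ndufaf3, Ndufb8 and Ndufb10), with 9.2% of all genes past the threshold, and without WT replicate 1 it was Ndufa6, Ndufa9 and Ndufb9, with 3.57% of all genes. The groups did not overlap for the same 3 genes on the lower side, 6.82% against 6.89% of all genes, nor for 2 on the higher side, Ndufs3 and Ndufb1, 4.55% against 10.3% of all genes, with 17.2% of all genes apart in either direction. In bulk RNA of this kind, fewer cells of a type and less RNA per cell cannot be told apart.

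By direction alone, 33 of the 44 genes, or 75%, were lower in Tet1 KO and 11 higher, where 43.5% of all 18194 genes were lower. The median difference over the 44 was -0.13 (log2, Tet1 KO minus WT), against 0.05 over all genes. The medians on the 3 Tet1 KO arrays, relative to the WT mean, were -0.12, -0.16 and -0.07, and WT replicate 1 itself was at -0.08, below Tet1 KO replicate 3, so that the groups overlapped. Without Tet1 KO replicate 2, 31 genes were lower and the median was -0.09. The spread was larger in Tet1 KO for 33 of the 44 genes, with a median SD of 0.24 against 0.14 in WT, and the same held for 72.9% of all genes.

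**Figure D1:**
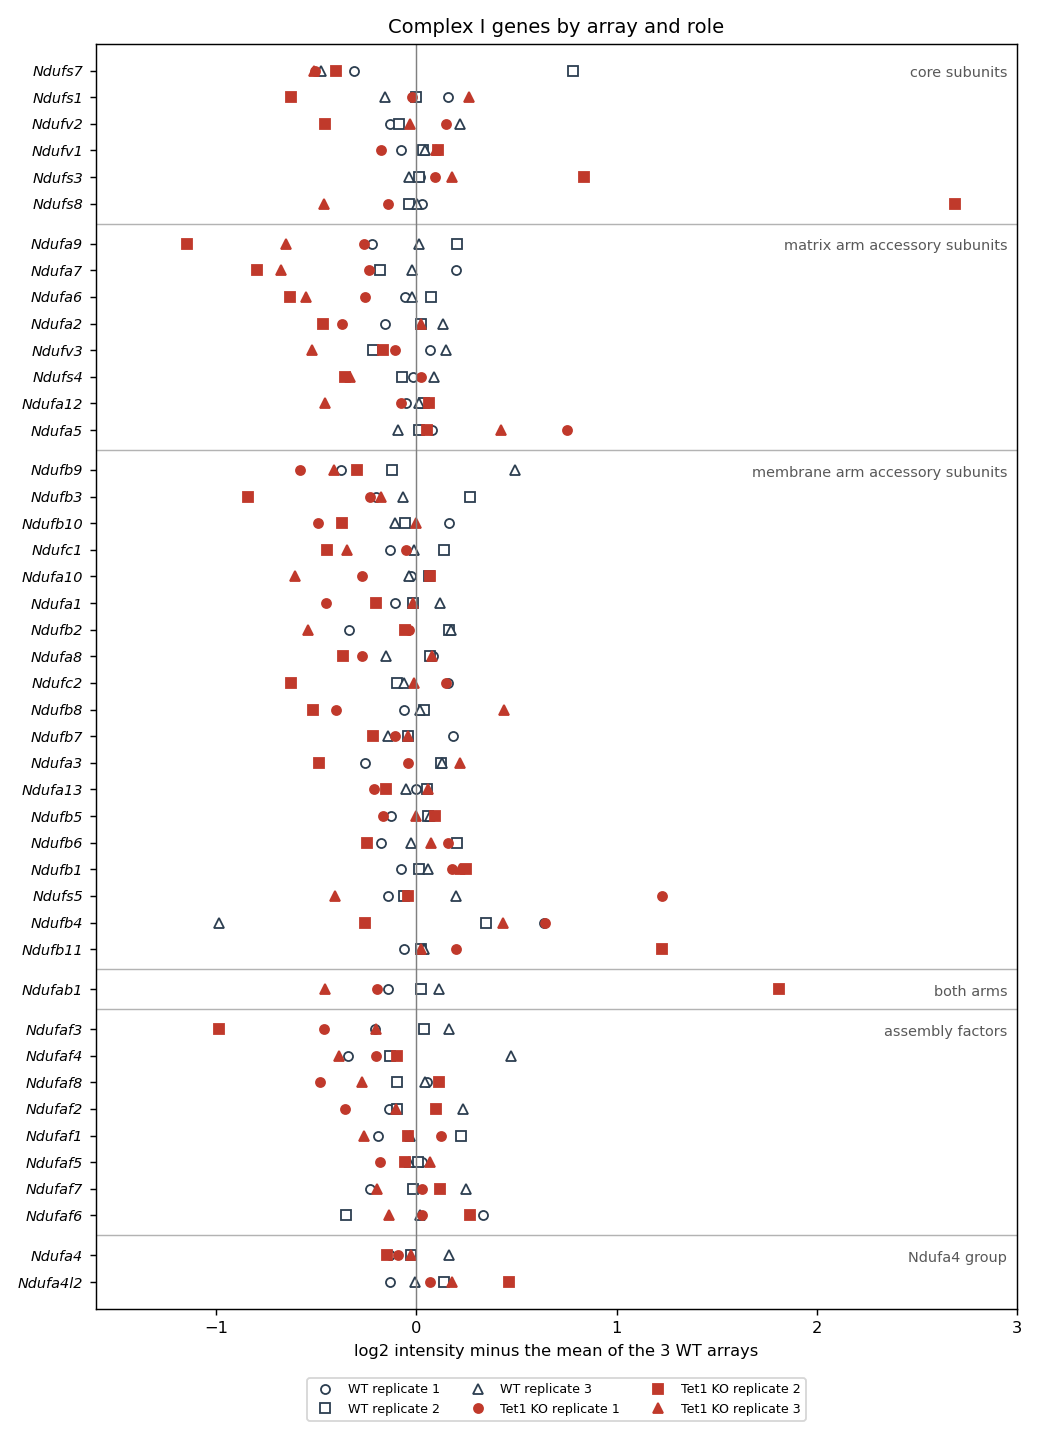
Each row is 1 of the 44 complex I genes, grouped by role and ordered by difference, and the x axis gives log2 intensity minus the mean of the 3 WT arrays. Open symbols are WT arrays and filled symbols Tet1 KO arrays, with 1 shape per replicate number. Most filled symbols overlap the open ones, and the far right values of Ndufs8, Ndufab1 and Ndufb11 belong to Tet1 KO replicate 2.

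Most complex I genes were bright, and bright genes of any kind were more often lower on the Tet1 KO arrays. Of the 44, 32 lay in the brightest of 10 equal classes of genes, with a mean above 9.10. Among the 1788 other genes of that class, 66.3% were lower in Tet1 KO with a median of -0.10. Of the 32 complex I genes there, 26, or 81.25%, were lower with a median of -0.16, and 3 had an unadjusted limma p under 0.05 on the lower side, 9.38% against 3.97% of the others. The groups lay apart on the lower side for 9.38% of the 32 and for 12.8% of the others.

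To place each complex I gene among genes of like brightness, its difference was set against the median difference of the 200 other genes nearest in mean level. For the 43 complex I genes above the bacterial level, that median ran from -0.17 to -0.02. After subtracting it, 24 of the 44 genes were lower and 20 higher, and the median over the 44 was -0.03. The level-adjusted medians were -0.05, 0.06 and -0.06 on the 3 Tet1 KO arrays and -0.06, 0.02 and 0.01 on the WT arrays, which overlap. By role, the median after this step was -0.16 for the accessory subunits of the matrix arm, with 7 of 8 lower, -0.05 for those of the membrane arm, with 12 of 19 lower, 0.03 for the core subunits, with 1 of 6 lower, and -0.01 for the assembly factors, with 4 of 8 lower. These differences between roles are a description and were not tested.

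**Figure D2:**
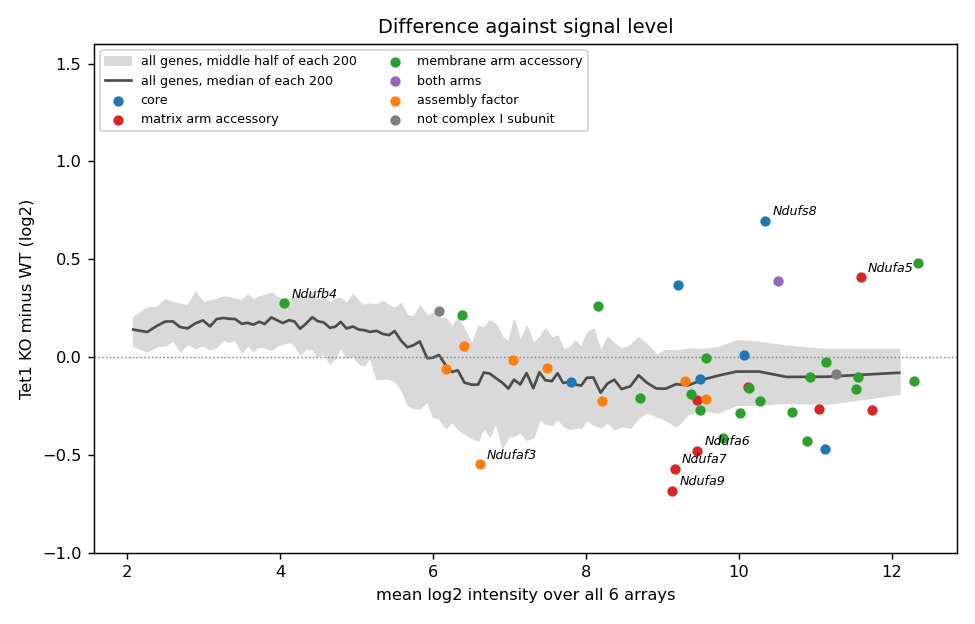
The x axis is the mean log2 intensity over all 6 arrays and the y axis the difference of Tet1 KO minus WT (log2). The dark line is the median of successive groups of 200 genes out of all 18194 and the grey band their interquartile range, while coloured points are the 44 complex I genes by role. The line lies below 0 over the levels where most complex I genes lie, and Ndufa6, Ndufa7, Ndufa9 and Ndufaf3 are among the points below the band.

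Of the core subunits, 3 were lower and 3 higher, with differences from -0.47 to 0.70. Their median of -0.05 became 0.01 with quantile normalization, 0.07 with both forms of cyclic loess, 0.02 with array weights, 0.01 without WT replicate 3 and 0.01 without Tet1 KO replicate 2. It moved the other way when probe sets were averaged, to -0.10 with 5 of 6 lower, and without Tet1 KO replicate 3, to -0.09 with 4 of 6 lower.

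Ndufv1, which holds the flavin that accepts electrons from NADH, read 9.99, 10.10 and 10.11 in WT and 9.89, 10.17 and 10.16 in Tet1 KO. The difference was 0.01 (SE 0.15, n = 3 each). The groups interleaved. Another Ndufv1 probe set did not overlap, at 8.72, 8.80 and 8.68 in WT and 8.41, 8.54 and 8.31 in Tet1 KO. It gave -0.31 (SE 0.14, unadjusted limma p over all probe sets 0.0722, adjusted 0.686) and was singled out after its values were seen. The remaining one gave 0.07. Ndufv2, the partner of Ndufv1, carries an iron-sulfur cluster. It read 9.41, 9.46 and 9.76 in WT and 9.69, 9.09 and 9.51 in Tet1 KO. These differ by -0.11 (SE 0.21), and again the values interleaved. Ndufs1, the large iron-sulfur subunit next in the electron path, read 8.03, 7.87 and 7.71 against 7.85, 7.24 and 8.13, a difference of -0.13 (SE 0.25). Its Tet1 KO arrays included both the lowest and the highest of the 6 values, and without replicate 2 the difference was 0.12.

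Ndufs3, a core subunit near the quinone site, was the 1 core gene whose groups lay apart in its brightest probe set. It read 9.04, 9.03 and 8.98 in WT and 9.11, 9.85 and 9.19 in Tet1 KO, which differ by 0.37 (SE 0.22) with an unadjusted limma p of 0.140. The value rested largely on Tet1 KO replicate 2 and was 0.14 without it. Ndufs7, which carries the last iron-sulfur cluster before ubiquinone, read 11.05, 12.15 and 10.89 in WT and 10.86, 10.96 and 10.85 in Tet1 KO, which differ by -0.47 (SE 0.33). Here WT replicate 2 was the value that stood out, and without it the difference was -0.08.

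Ndufs8, another iron-sulfur subunit of the quinone-reducing part, had the largest positive difference of the 44 genes, and it came from 1 array. On WT arrays its readings were close together, between 9.96 and 10.03, and on Tet1 KO they were 9.86, 12.69 and 9.54. The difference of 0.70 had an SE of 0.78, and without Tet1 KO replicate 2 it was -0.30 with an unadjusted limma p of 0.0925. The gene has 6 probe sets. The one that stands for it and 1 other were high on replicate 2, at 12.69 and 12.75. The other 4 read no higher on that array than 9.05 and gave differences of -0.43, -0.62, -0.15 and -0.35. The probe set with -0.43 did not overlap, at 9.36, 9.28 and 9.21 in WT and 9.14, 9.03 and 8.39 in Tet1 KO. Its unadjusted limma p over all probe sets was 0.101 (adjusted 0.686), and it was singled out after its values were seen.

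The accessory subunits of the matrix arm held the genes with the smallest p-values. Of 8 measured, 7 were lower and only Ndufa5 was higher, and the median was -0.27. In this arm 7 were lower under each normalization tried, with averaged probe sets, with array weights and without each array in turn. Across these, medians ran from -0.34 without Tet1 KO replicate 1 to -0.17 with cyclic loess over all probe sets. Filters on signal level, fits with an intensity trend and a replicate block leave the differences unchanged by construction, so they could not alter this count. The medians relative to the WT mean were -0.17, -0.41 and -0.49 on the 3 Tet1 KO arrays and -0.03, 0.02 and 0.01 on the WT arrays. These list values carry no test, and 0 of the 8 genes passed the adjusted threshold.

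Ndufa9, a subunit at the junction of the arms near the quinone channel (chr6:126821863-126849144), had the largest negative difference. It read 9.25, 9.68 and 9.49 in WT and 9.21, 8.33 and 8.82 in Tet1 KO. All Tet1 KO arrays lay below all WT arrays, although replicate 1 was only just below WT replicate 1. The difference was -0.68 (SE 0.25), with an unadjusted p of 0.0310 and a Benjamini-Hochberg adjusted p of 0.642 in limma, and without Tet1 KO replicate 2 it was -0.45 with an unadjusted p of 0.0607.

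Ndufa7, a subunit of the NADH-oxidising part (chr17:33824572-33838316), read 9.64, 9.27 and 9.42 in WT and 9.21, 8.65 and 8.77 in Tet1 KO. The groups did not overlap, and the difference was -0.57 (SE 0.20, unadjusted limma p 0.0265, adjusted 0.642). Without Tet1 KO replicate 2 it was -0.46 with an unadjusted p of 0.0609, and after cyclic loess over all probe sets -0.44 with 0.0522. All 5 of its probe sets were lower, from -0.57 to -0.10, and a second one also lay apart, at 8.69, 8.63 and 8.83 in WT and 8.30, 8.17 and 8.28 in Tet1 KO. Ndufa6, a small subunit that binds the mitochondrial acyl carrier protein (chr15:82350139-82354291), read 9.64, 9.77 and 9.68 in WT and 9.44, 9.07 and 9.15 in Tet1 KO. Its groups lay clearly apart, with a difference of -0.48 (SE 0.16, unadjusted limma p 0.0202, adjusted 0.642) and of -0.40 without Tet1 KO replicate 2. Set against genes of like level, the differences of Ndufa9, Ndufa7 and Ndufa6 were -0.54, -0.43 and -0.36.

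The stretches before the start sites of these 3 genes are shown because they were the complex I genes with an unadjusted p under 0.05 and groups that lay apart. Each is 250 bases, 5′ to 3′ on the strand of the gene, ending at the base before the RefSeq start in GRCm38.p6, in lower case with a match to either motif searched in capitals. Ndufa9 is at chr6:126849145-126849394 on the minus strand, Ndufa6 at chr15:82354292-82354541 on the minus strand and Ndufa7 at chr17:33824322-33824571 on the plus strand, the most upstream start listed for it.
Ndufa9: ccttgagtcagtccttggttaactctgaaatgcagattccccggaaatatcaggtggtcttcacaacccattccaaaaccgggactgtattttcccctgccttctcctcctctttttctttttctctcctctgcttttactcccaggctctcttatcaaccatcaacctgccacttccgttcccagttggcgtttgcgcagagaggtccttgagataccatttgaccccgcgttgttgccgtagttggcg
Ndufa6: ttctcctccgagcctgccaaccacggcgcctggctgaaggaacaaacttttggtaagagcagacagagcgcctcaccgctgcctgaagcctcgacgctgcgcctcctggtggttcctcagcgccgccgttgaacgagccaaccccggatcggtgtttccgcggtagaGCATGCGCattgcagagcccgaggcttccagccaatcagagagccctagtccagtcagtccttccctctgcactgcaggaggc
Ndufa7: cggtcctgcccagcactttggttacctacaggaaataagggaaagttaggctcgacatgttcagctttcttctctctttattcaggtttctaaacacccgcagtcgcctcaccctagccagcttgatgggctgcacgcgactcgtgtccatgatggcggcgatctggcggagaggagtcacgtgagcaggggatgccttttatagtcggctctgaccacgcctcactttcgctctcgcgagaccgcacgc
The motifs were GCATGCGC, the core of the site bound by Nrf1, and CCGGAAGT, an ETS site of the kind bound by Gabpa, on both strands in windows of 300 bases (250 before and 50 after the start). Both factors are known regulators of respiratory genes. Of the 44 genes, 39 had a window. The Nrf1 core was found in 4 of them, or 10.3%, against 3.05% of 27025 genes with a window: in Ndufa6, with its first base 83 bases before the start, and in Ndufa8, Ndufaf4 and Ndufaf5. Matches on opposite strands can overlap. The ETS site was found in 1, Ndufs3, or 2.56%, against 4.31%. A match is a description of the letters and not a bound site.

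The remaining matrix arm genes had overlapping groups. Ndufa5, which sits beside the core of the quinone-reducing part, was the exception in direction, at 11.47, 11.40 and 11.29 in WT and 12.14, 11.44 and 11.81 in Tet1 KO. Tet1 KO replicates 1 and 3 were above every WT array and replicate 2 was not. The difference of 0.41 (SE 0.21) had an unadjusted limma p of 0.0879, and without Tet1 KO replicate 2 it was 0.59 with an unadjusted p of 0.0102, while without Tet1 KO replicate 1 it was 0.24. Its other probe set gave 0.18. Ndufs4, an iron-sulfur protein family subunit whose loss causes Leigh-like disease in mice, read 9.54, 9.49 and 9.65 in WT and 9.58, 9.21 and 9.23 in Tet1 KO, which differ by -0.22 (SE 0.16) in which replicate 1 stayed among the WT values. Ndufa12 read 10.15, 10.23 and 10.21 against 10.12, 10.26 and 9.74, a difference of -0.15 (SE 0.18). Ndufa2 and Ndufv3 gave -0.27 and -0.26, with overlap.

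Among the 19 accessory subunits of the membrane arm, the difference was negative for 15 and positive for 4, and its median was -0.16. Without Tet1 KO replicate 2, 11 were lower and the median was -0.08, while after cyclic loess over all probe sets 12 were lower at a median of -0.04. None had an unadjusted limma p under 0.05, where 7.21% of all genes did. The medians relative to the WT mean were -0.10 and -0.24 on Tet1 KO replicates 1 and 2, and on WT they ran from -0.08 to 0.06, with Tet1 KO replicate 3 among the WT arrays.

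Ndufb9, a membrane arm subunit that binds the acyl carrier protein, read 10.73, 10.99 and 11.60 in WT and 10.52, 10.81 and 10.70 in Tet1 KO. The difference of -0.43 (SE 0.24) leaned on WT replicate 3 and was -0.18 without it. A second probe set of the gene read 9.81, 9.91 and 9.72 in WT and 9.21, 8.85 and 9.18 in Tet1 KO, well apart, with a difference of -0.73 (SE 0.16), an unadjusted p of 0.00339 and an adjusted p of 0.686 in limma over all probe sets.

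Ndufb7, an intermembrane space subunit, likewise had a bright probe set with overlap, at -0.12, and a second one at 9.57, 9.71 and 9.52 in WT and 9.12, 8.81 and 8.93 in Tet1 KO. These values did not overlap, and the difference was -0.64 (SE 0.15, unadjusted limma p 0.00462, adjusted 0.686). With the mean of probe sets in place of the brightest, the count of the 44 genes with an unadjusted p under 0.05 was 6, with Ndufaf3, Ndufb7 and Ndufb9 beside the 3 named above, where 7.95% of all genes passed in the same fit. The second probe sets of Ndufb7 and Ndufb9 were singled out after their values were seen.

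**Figure D3:**
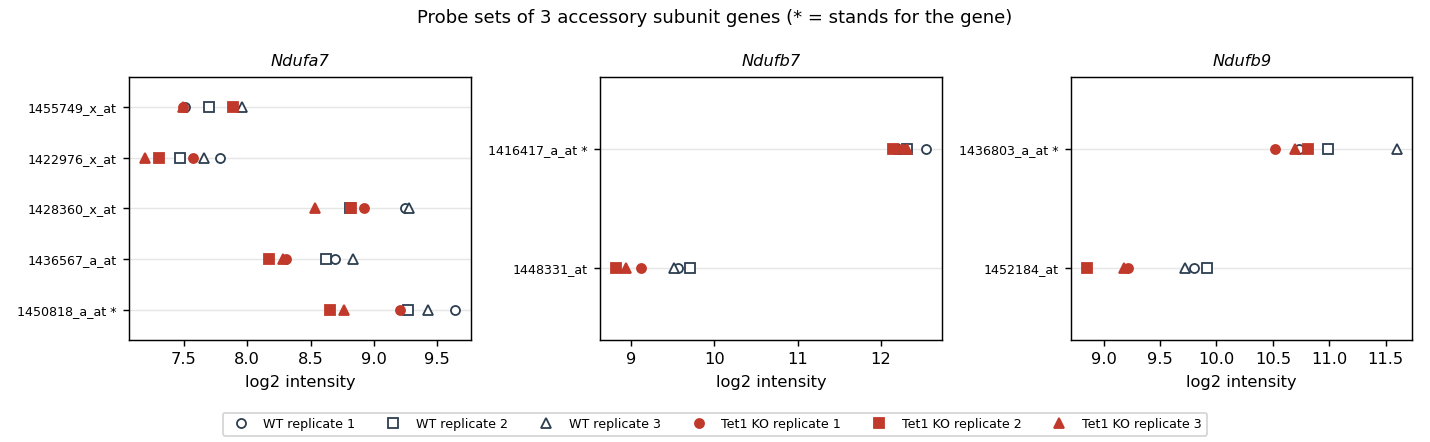
Each row is a probe set of Ndufa7, Ndufb7 or Ndufb9 that read above the bacterial level in at least 1 group, and the x axis is log2 intensity on the 3 WT (open) and 3 Tet1 KO (filled) arrays. An asterisk marks the probe set that stands for the gene. The lower rows of Ndufb7 and Ndufb9 separate the groups, at differences of -0.64 and -0.73, while their asterisked rows overlap. The asterisked row of Ndufa7 does not overlap.

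Of the other membrane arm genes, Ndufb3, a small single-span subunit, read 9.80, 10.27 and 9.94 in WT and 9.78, 9.16 and 9.83 in Tet1 KO. The difference was -0.41 (SE 0.23), and leaving out Tet1 KO replicate 2 gave -0.20 and WT replicate 2 -0.28. Ndufb10, an intermembrane space subunit, read 10.32, 10.11 and 10.06 against 9.67, 9.80 and 10.16, a difference of -0.29 (SE 0.18) in which Tet1 KO replicate 3 overlapped WT. Ndufa10, which is bound at the matrix side of the membrane arm, read 9.60, 9.69 and 9.59 against 9.36, 9.70 and 9.02. The difference was -0.27, and without Tet1 KO replicate 2, the highest of the 6, it was -0.44 with an unadjusted limma p of 0.0307. This gene was singled out after that value was seen. The other lower genes were Ndufa1, Ndufa3, Ndufa8, Ndufa13, Ndufb2, Ndufb5, Ndufb6, Ndufb8, Ndufc1 and Ndufc2. They ran from -0.28 for Ndufc1 to -0.0046 for Ndufb6, each with overlap in its brightest probe set. Further bright probe sets of Ndufc2 lay apart on the lower side, at -0.28 and -0.27 (unadjusted limma p over all probe sets 0.0994 and 0.0955). A dim one, below the bacterial level, lay apart on the higher side at 0.22.

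Ndufb1 was the 1 membrane arm gene whose Tet1 KO arrays all lay above WT. It read 6.19, 6.29 and 6.33 in WT and 6.45, 6.52 and 6.49 in Tet1 KO, a small but even difference of 0.22 (SE 0.13, unadjusted limma p 0.155). Ndufs5, an intermembrane space subunit, read 7.90, 7.97 and 8.23 against 9.26, 7.99 and 7.63, a difference of 0.26 (SE 0.41) that was -0.22 without Tet1 KO replicate 1. Ndufb4 had only a dim probe set by the rule, with means of 3.92 and 4.19 below the bacterial level in both groups, so that its 0.27 is not a measure of the gene.

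Ndufb11 and Ndufab1, like Ndufs8, had 1 array far above the others. Ndufb11, an X-linked membrane arm subunit, read 12.04, 12.13 and 12.14 in WT and 12.30, 13.33 and 12.13 in Tet1 KO. The difference was 0.48 (SE 0.32), and 0.11 without Tet1 KO replicate 2. Another of its probe sets was also high on that array, at 12.93, but the last one was lower in Tet1 KO without overlap, at -0.52 (SE 0.18, unadjusted limma p over all probe sets 0.0218, adjusted 0.686).

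Ndufab1, the mitochondrial acyl carrier protein, which also serves lipoic acid synthesis, read 10.18, 10.35 and 10.44 in WT and 10.13, 12.13 and 9.87 in Tet1 KO. Tet1 KO replicate 2 was above and the other Tet1 KO arrays below all WT values, which gave 0.39 (SE 0.57) with all arrays and -0.33 without it. A second probe set read 11.81 on replicate 2 and between 9.10 and 9.55 on the other arrays. Over the 44 genes, Tet1 KO replicate 2 was the highest of the 6 arrays for 11 genes, or 25%, against 38.5% of all genes. It was the lowest for 17, or 38.6%, against 24.6% of all genes.

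**Figure D4:**
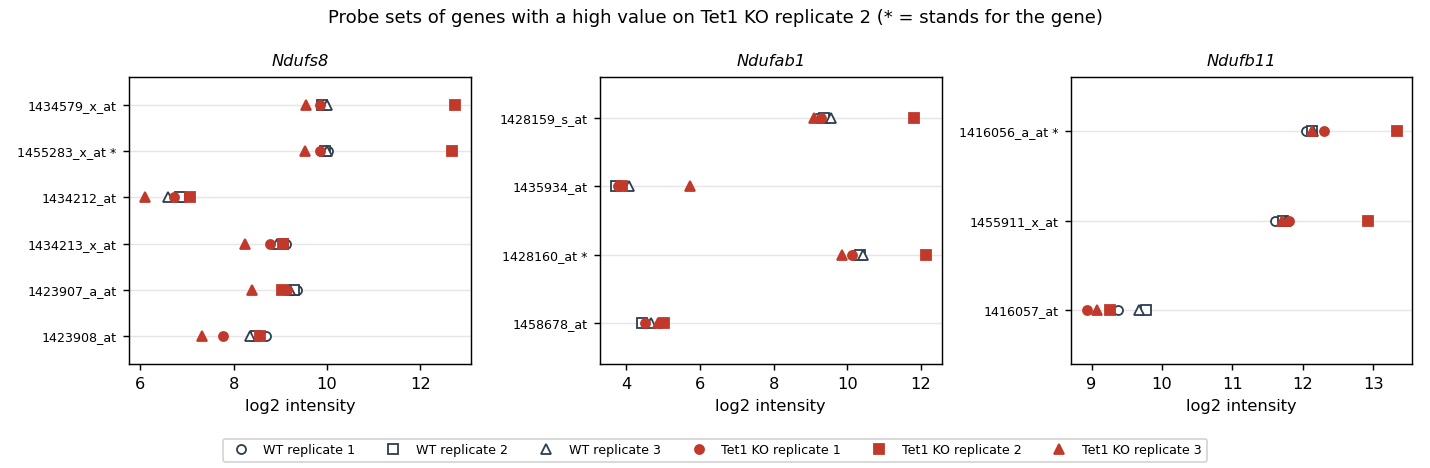
Each row is a probe set of Ndufs8, Ndufab1 or Ndufb11 that read above the bacterial level in at least 1 group, with log2 intensity on the x axis, WT arrays as open and Tet1 KO arrays as filled symbols. An asterisk marks the probe set that stands for the gene. Tet1 KO replicate 2 is far to the right for 2 probe sets of each gene, at 12.69 and 12.75 for Ndufs8, and among or near the other arrays for the rest.

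Of the 8 Ndufaf assembly factors, 7 were lower and 1 higher. Their median was -0.09. With quantile normalization and both forms of cyclic loess 4 were lower, while without Tet1 KO replicate 2 all 8 were lower at a median of -0.16. Leaving out WT replicate 1 gave a median of -0.17, and leaving out WT replicate 3 gave -0.04. Medians on the 3 Tet1 KO arrays were -0.19, 0.03 and -0.20, with WT from -0.16 to 0.10. Ndufaf3, which acts early in building the quinone-reducing part, differed most. It read 6.68, 6.93 and 7.05 in WT and 6.43, 5.90 and 6.68 in Tet1 KO, with replicate 3 level with the lowest WT array. The difference of -0.55 (SE 0.23) had an unadjusted limma p of 0.0527 and was -0.33 without Tet1 KO replicate 2.

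Ndufaf8, a partner of Ndufaf5, read 9.73, 9.58 and 9.72 against 9.20, 9.79 and 9.41, a difference of -0.21 (SE 0.19). Without Tet1 KO replicate 2 it was -0.38 with an unadjusted limma p of 0.0384, but the second probe set gave 0.30 and the mean of both 0.04. Ndufaf4 and Ndufaf2 gave -0.23 and -0.12 with SEs of 0.24 and 0.19. Ndufaf1, Ndufaf5, Ndufaf6 and Ndufaf7 lay between -0.06 and 0.05, each with overlap. Of 9 further assembly factors outside the Nduf names, 8 were measured, with 5 lower, 3 higher and a median of -0.22. Over all genes 43.5% were lower. None of the 8 had an unadjusted limma p under 0.05, where 7.21% of all genes did. Timmdc1, which helps to build the membrane arm, gave -0.48 (SE 0.29), or -0.21 without Tet1 KO replicate 2, and Ecsit, an early factor, gave -0.25 (SE 0.19).

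Ndufa4 read 11.18, 11.29 and 11.48 in WT and 11.23, 11.17 and 11.29 in Tet1 KO, which differ by -0.09 (SE 0.15) that was 0.01 after cyclic loess over all probe sets. Ndufa4l2, a hypoxia-inducible paralog, read 5.82, 6.09 and 5.95 against 6.03, 6.42 and 6.13. Its difference of 0.24 (SE 0.17) came with overlap and was 0.12 without Tet1 KO replicate 2.

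The probe sets of a gene did not always give the same direction. The 44 genes have 88 probe sets with 1 symbol, and 22 genes have more than 1 above the bacterial level. Of these 22, all probe sets were lower in Tet1 KO for 14, all higher for 2 (Ndufa5 and Ndufab1), and in both directions for 6: Ndufaf8, Ndufb11, Ndufb2, Ndufs4, Ndufs8 and Ndufv1. Over the 88, 7 probe sets of 6 genes had an unadjusted limma p under 0.05, all lower, which is 7.95% against 3.58% of 45037 probe sets. The groups lay apart on the lower side for 11, or 12.5%, against 6.29% of all probe sets, many of which are dim. Among the other genes of the brightest class, with 1 probe set each, 12.8% lay apart on the lower side. Of those genes, 3.97% had an unadjusted limma p under 0.05 on that side. No share matched for level was computed over probe sets. None passed adjustment, where the share over all probe sets was 0%.

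Regulators of respiratory genes were measured alongside. Of 11, 7 were lower and 4 higher, where 43.5% of all genes were lower. At an unadjusted limma p under 0.05 there were 0, where 7.21% of all genes passed. The groups lay apart on the lower side for 2, Nrf1 and Tfam, beside 6.89% of all genes. In the classes of level that hold these genes, the share was 10.9% and 11.3% of other genes. The median of the 11 was -0.12, and -0.05 without Tet1 KO replicate 2. Nrf1 read 7.08, 7.46 and 7.45 in WT and 7.07, 6.23 and 7.02 in Tet1 KO, apart by a small margin, with a difference of -0.56 (SE 0.26, unadjusted limma p 0.0719) that was -0.29 without Tet1 KO replicate 2. Tfam, the packaging and transcription factor of mitochondrial DNA, read 7.74, 8.17 and 7.87 against 7.43, 7.69 and 7.59, also without overlap, at -0.36 (SE 0.17, unadjusted limma p 0.0760), and at -0.42 without that array. Gabpa gave -0.28 (SE 0.34), which turned to 0.11 without Tet1 KO replicate 2, and the coactivator gene Ppargc1a 0.09 (SE 0.22). The 3 respirasome factors, Cox7a2l, Higd1a and Higd2a, gave -0.24, -0.11 and -0.26, with 0 past the unadjusted threshold, where 7.21% of all genes passed.

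Among 6 genes of other routes for NADH or electrons into ubiquinone, 4 were lower and 2 higher. Of the lower, 2 had an unadjusted limma p under 0.05, where 3.96% of all genes did on that side. The same 2 lay apart on the lower side, where 6.89% of all genes did. In the classes of level that hold these 2, Dhodh and Gpd2, 6.23% and 6.22% of other genes had such a p. In those classes 9.37% and 12.8% of other genes lay apart on the lower side. The direction of this list rested on Tet1 KO replicate 2: without it 2 of 6 were lower, and the median turned from -0.16 to 0.03. Dhodh, which feeds electrons from pyrimidine synthesis into ubiquinone, read 7.10, 7.34 and 6.65 in WT and 6.30, 5.27 and 6.26 in Tet1 KO. The groups lay apart with a difference of -1.09 (SE 0.33, unadjusted limma p 0.0130, adjusted 0.642), and of -0.75 without Tet1 KO replicate 2. Gpd2, the glycerol phosphate dehydrogenase of the inner membrane, read 8.73, 8.83 and 8.95 against 8.64, 7.99 and 8.40, also apart, with -0.49 (SE 0.20, unadjusted limma p 0.0441, adjusted 0.642), but -0.32 with an unadjusted p of 0.0791 without Tet1 KO replicate 2.

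Beside other mitochondrial genes, the complex I genes had the smaller median difference, -0.13, against -0.23 for 51 genes of respiratory complexes II to V and -0.24 for 76 mitochondrial ribosomal protein genes. The share of lower genes was 75% for complex I, 84.3% for complexes II to V and 82.9% for the ribosomal proteins. Groups lay apart on the lower side for 3 of 44, 12 of 51 and 17 of 76 genes, beside 6.89% of all genes and 12.8% of the other genes in the brightest class. These comparisons share all 6 arrays, and the difference between the lists was not tested.

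**Figure D5:**
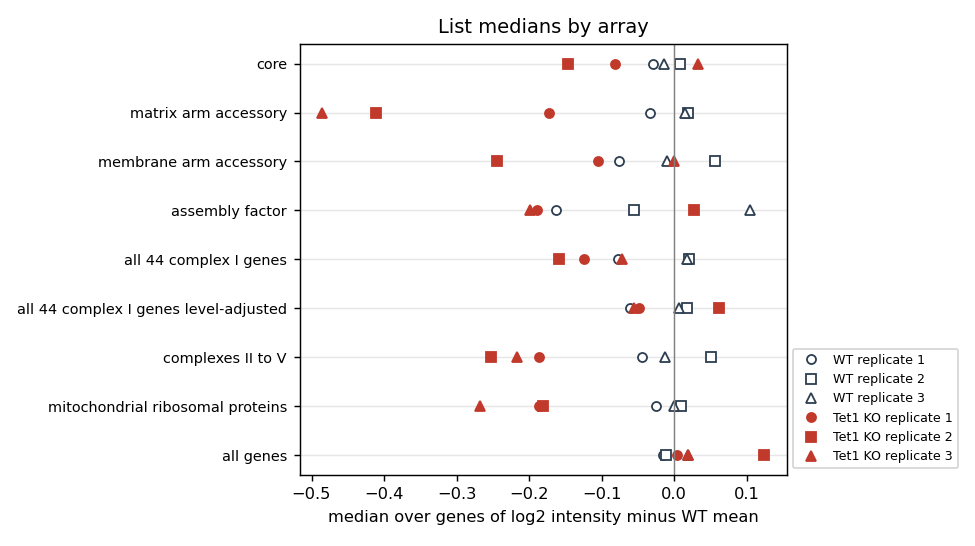
The x axis is the median over the genes of a list of log2 intensity minus the mean of the 3 WT arrays, and each row is a list, with WT arrays as open and Tet1 KO arrays as filled symbols. The matrix arm accessory subunits have Tet1 KO medians of -0.17, -0.41 and -0.49, those of replicates 2 and 3 the lowest drawn, while the level-adjusted medians of all 44 genes overlap between the groups.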

How the data were processed

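The deposited table held log2 intensities, 1 value for each of 45101 probe sets and 6 arrays, made from 125 ng of RNA per sample, per the labels' protocols. The authors' background correction, normalization and summarization are not given in the sources used here, and their range shows the log2 scale. Values were used as deposited. The platform annotation gave 1 symbol for 34958 probe sets, which stood for 18194 genes. Tet1 KO was compared with WT in limma 3.58.1 (R 4.3.3) with lmFit and eBayes, genotype as the only term, two-sided, with Benjamini-Hochberg adjustment at 0.05. With 3 arrays against 3, an exact permutation test cannot go below p = 0.1, and the number of arrays limits the precision. Values are given in the order of replicates 1, 2 and 3, with moderated standard errors. The fit was tested on simulated data. For the bacterial level, the highest of 27 bacterial control probe sets was taken on each array and averaged. Fits over probe sets used the 45037 that are no controls. Named genes were Tet1, each core subunit and assembly factor, Ndufab1, Ndufa4, Ndufa4l2, and accessory subunits with an unadjusted p under 0.05, no overlap, or among the 3 largest differences in each direction of their arm. The members, lists, motifs and alternatives were chosen with earlier results of these data known. Sequences and coordinates are from RefSeq, GRCm38.p6. Figures were drawn with matplotlib 3.10.9.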

Additional observations from a re-analysis of the deposited data

How the results depend on the processing

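The adjusted count stayed at 0 of 44 under every alternative run. The count at an unadjusted limma p under 0.05 was 3 as reported, where 7.21% of all genes passed. It was 6 when probe sets were averaged and 1 with a replicate block, where 7.95% and 5.45% of all genes passed. When each array was left out it ran from 0 to 4, and the share of all genes from 3.41% to 11%. With both forms of cyclic loess it was again 3, where 5.74% and 5.78% of all genes passed. There Ndufa5, higher in Tet1 KO, took the place of Ndufa7. The block was not taken as a pairing: deviations of same-numbered samples correlated at 0.01, -0.01 and 0.03, none over 0.1. The median difference was -0.029 with cyclic loess over all probe sets and -0.044 with it over genes, which remove trends with level by construction, and ran from -0.17 to -0.09 with arrays left out. The level-adjusted median ran from -0.07 to 0.0046 with arrays left out. Of 31 named genes, Tet1 included, 16 kept their direction throughout, as did 488 of 525 values. Many of these values could not reverse. Filters on signal level, fits with an intensity trend and the replicate block leave a gene's difference unchanged by construction. Averaging probe sets does the same for a gene with 1 probe set. The values that changed direction follow. After cyclic loess over all probe sets and over genes, Ndufa4 gave 0.013 and 0.0046, Ndufaf2 0.0072 and 0.0038, Ndufaf5 0.061 and 0.059, Ndufaf7 0.083 and 0.074, and Ndufv2 0.012 and 0.0084. After quantile normalization Ndufaf1 gave 0.00015, Ndufaf5 0.034 and Ndufaf7 0.078. Array weights gave -0.081 for Ndufab1, 0.017 for Ndufs1, -0.034 for Ndufv1 and 0.031 for Ndufv2. Averaged probe sets gave 0.044 for Ndufaf8, -0.012 for Ndufs8 and -0.074 for Ndufv1. With single arrays left out the ranges were -0.325 to 0.808 for Ndufab1, -0.155 to 0.051 for Ndufaf1, -0.398 to 0.010 for Ndufaf4, -0.118 to 0.0060 for Ndufaf5, -0.122 to 0.221 for Ndufaf6, -0.132 to 0.108 for Ndufaf7, -0.218 to 0.594 for Ndufb4, -0.325 to 0.121 for Ndufs1, -0.223 to 0.594 for Ndufs5, -0.302 to 1.28 for Ndufs8, -0.038 to 0.103 for Ndufv1 and -0.243 to 0.056 for Ndufv2. The cause was not tested.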

Other observations

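Several complex I genes were also measured by probe sets that the annotation assigns to more than 1 gene, mostly a subunit and a pseudogene or copy of it, so that the source of their signal is uncertain. There were 10 such probe sets. The one for Ndufs6 and Ndufs6b, a zinc-binding accessory subunit of the matrix arm and its copy, read 10.13, 10.22 and 10.72 in WT and 9.71, 9.63 and 9.75 in Tet1 KO. All Tet1 KO values lay below WT, with a difference of -0.66 (SE 0.19, unadjusted limma p over all probe sets 0.0127, adjusted 0.686). It was singled out after its values were seen.

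A probe set for Ndufb4, Ndufb4b and Ndufb4c read 9.21, 9.46 and 9.96 in WT and 11.65, 9.54 and 9.46 in Tet1 KO, with replicate 1 alone above the rest, while the other for the same genes gave -0.01. Replicate 1 was also highest for Ndufs5 and Ndufs5-ps, at 10.92 against 10.10 to 10.61 in WT and 9.60 and 9.49 on the other Tet1 KO arrays. The bright probe set for Ndufa11 and Ndufa11b read 9.43, 9.27 and 9.35 in WT and 10.69, 9.26 and 8.26 in Tet1 KO, where replicates 1 and 3 lay on opposite sides of WT.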
